A study of Mus musculus with 6 samples.

Results

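The 10 genes described here are immediate early genes: Fos, Fosb, Jun, Junb, Egr1, Egr2, Ier2, Nr4a1, Dusp1 and Zfp36. They were chosen by symbol, as genes that respond to handling and dissection as well as to signalling, and all 10 were found among the 54532 gene identifiers of the count table. RNA was sequenced from epididymal white adipose tissue, a visceral fat depot, of mice on a high-fat diet for 16 weeks. The 3 knockout libraries, labelled Myeloid-specific PD-1 KO, came from mice with Lyz2-Cre and PD-1fl/fl alleles, in which the Lyz2 promoter drives Cre in myeloid cells such as macrophages and neutrophils. The 3 control libraries came from littermates with the same PD-1fl/fl alleles and no Lyz2-Cre, on the same diet for the same time. PD-1 is the product of Pdcd1 and restrains immune cells, T cells above all. The sources used here do not give the age of the mice, how the tissue was dissected or how soon it was frozen or lysed.

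Immediate early genes are the first genes transcribed when a cell is stimulated, and their induction needs no new protein synthesis. Growth factors, cytokines, calcium, mechanical stress, hypoxia and tissue handling act through ERK, p38 and calcium pathways on factors already bound at the promoters, chiefly serum response factor with its ternary complex partners at CArG boxes and CREB at cyclic AMP response elements (CREs). The transcripts are short-lived, so their level follows the recent minutes to hours of a tissue. Fos, Fosb, Jun and Junb encode subunits of the AP-1 transcription factor, Egr1 and Egr2 encode zinc-finger transcription factors, and Nr4a1 encodes an orphan nuclear receptor. Ier2 encodes a small nuclear protein, Dusp1 a phosphatase that inactivates p38, JNK and ERK kinases, and Zfp36 (tristetraprolin) a protein that binds AU-rich elements and speeds the decay of cytokine transcripts.

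The promoter stretches are shown first because they hold letters through which immediate early genes are known to be induced. They are RefSeq sequence on GRCm38.p6, read from 5′ to 3′ on the strand of the gene. Windows of RefSeq starts were searched for 8 of the 10 genes, and those of Egr1 and Ier2 were not searched. Capitals mark the CRE core TGACG or its complement CGTCA, the whole CRE TGACGTCA, the TATA letters TATAAA, and the CArG box, which is CC, then 6 A or T letters, then GG.
Fos (chr12:85473730-85473889, plus strand): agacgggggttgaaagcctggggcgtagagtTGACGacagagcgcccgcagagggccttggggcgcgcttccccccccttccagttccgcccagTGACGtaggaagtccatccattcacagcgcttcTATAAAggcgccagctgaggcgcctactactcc
Fosb (chr7:19310052-19310205, minus strand): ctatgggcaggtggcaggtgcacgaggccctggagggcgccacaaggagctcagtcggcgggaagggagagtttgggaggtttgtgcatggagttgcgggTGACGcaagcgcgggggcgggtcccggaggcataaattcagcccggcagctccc
Junb (chr8:84978749-84978908, minus strand): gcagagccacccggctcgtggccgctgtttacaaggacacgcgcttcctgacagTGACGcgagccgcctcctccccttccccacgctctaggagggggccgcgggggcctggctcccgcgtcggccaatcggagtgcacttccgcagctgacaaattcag
Nr4a1 (chr15:101266606-101266845, plus strand): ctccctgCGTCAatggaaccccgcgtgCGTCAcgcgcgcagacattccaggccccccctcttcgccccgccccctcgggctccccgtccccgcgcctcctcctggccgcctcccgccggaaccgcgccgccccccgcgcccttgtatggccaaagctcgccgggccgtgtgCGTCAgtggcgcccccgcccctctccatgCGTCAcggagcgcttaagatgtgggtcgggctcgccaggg
Dusp1 (chr17:26508573-26508672, minus strand): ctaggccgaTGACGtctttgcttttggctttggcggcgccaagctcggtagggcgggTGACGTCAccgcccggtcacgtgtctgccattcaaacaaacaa
Egr2 (chr10:67537787-67537816, plus strand): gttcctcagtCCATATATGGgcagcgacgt
Zfp36 (chr7:28379267-28379296, minus strand): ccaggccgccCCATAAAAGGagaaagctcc

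The CRE core was the letter string these promoters shared most. Over all the RefSeq starts of the 8 genes searched, 6 genes had it in at least 1 window (Dusp1, Egr2, Fos, Fosb, Junb and Nr4a1). Of all 32851 windows of 250 bases before a start, 17.8% held it on either strand. The 8 genes have 12 windows among them, so the gene count and the share of single windows are not on the same footing. With 1 window per gene, at the RefSeq start nearest the gene model, 5 of the 8 had the CRE core and 1 had a CArG box. Nr4a1 had 4 CRE cores in the window shown, and Fos had 2, at 129 to 125 and 66 to 62 bases before its start, with TATAAA at 33 to 28 bases. Dusp1 was the 1 gene with a whole CRE, at 143 to 136 bases before its start, a string found in 1.55% of all windows; both of its ends also count as CRE cores. A CArG box was found for 2 genes, Egr2 and Zfp36 (58 to 49 bases before the start), against 1.47% of all windows. TATAAA was found in 12.4% of all windows and for 1 of the 8 genes. The AP-1 letters TGANTCA, present in 6.75% of all windows, were in no window of the 8 genes. The Egr2 stretch shown belongs to another RefSeq start than the one nearest its gene model, whose window held no match of any of these strings. A match is a description of these windows and not evidence of binding. Starts outside RefSeq and more distant elements were not searched.

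The tissue behind each library was checked before the values were read. Library totals ran from 20108185 to 27225533 counts. Control replicate 2 had the profile of liver, with Alb, the albumin gene of hepatocytes, at 148656 CPM (counts scaled to library size with TMM factors) and Adipoq, the adiponectin gene of adipocytes, at 11.2 CPM against 817 to 3649 in the other 5 libraries. Alb was also at 3879 CPM in control replicate 3 and 654 in knockout replicate 2, and at 4.02 to 57.6 in the other 3 libraries. The genotype test of each member is therefore also given without control replicate 2. Pdcd1, the targeted gene, had 19, 19 and 5 counts in the knockout libraries and 13, 0 and 0 in the controls. At these counts, and in tissue where other cells keep the gene, it does not check the genotype labels.

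The 10 genes moved together from library to library, within both genotypes. Their summed share of all counts was 0.171%, 0.0806% and 0.0465% in knockout replicates 1, 2 and 3, and 0.0310%, 0.0147% and 0.135% in control replicates 1, 2 and 3. The exact Clopper-Pearson 95% intervals, which cover counting error only, were 0.170 to 0.173% in knockout replicate 1 and 0.133 to 0.136% in control replicate 3, and 0.0456 to 0.0473% in knockout replicate 3 and 0.0303 to 0.0317% in control replicate 1. Knockout replicate 1 and control replicate 3 were thus the high libraries, 1 of each genotype, and knockout replicate 3 and control replicate 1 were low, again 1 of each. In bulk tissue, fewer cells that express a gene and less RNA per cell cannot be told apart.

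The split into high and low libraries held gene by gene. Both high libraries were above knockout replicate 3 and control replicate 1 for 10 of the 10 genes. For 8 of the 10 they were the 2 highest libraries of the 6, a pattern shown by 5.06% of the 15928 genes tested, and for Junb and Egr2 knockout replicate 2 was above control replicate 3. Knockout replicate 1 held the highest level of 5 genes and control replicate 3 that of the other 5. Knockout replicate 1 was above control replicate 1 and, at the same time, control replicate 3 above knockout replicate 3 for 10 of 10, against 28.8% of all genes tested. The order of knockout replicates 1, 2 and 3 was the same, falling, in 9 of 10 genes. Zfp36 was the exception, with 96.3 CPM in replicate 2 and 99.0 in replicate 3. Control replicate 3 was above control replicate 1 in 10 of 10 genes. Control replicates 3, 1 and 2 fell in that order, in CPM, in 6 of 10. The high and low libraries were named from the summed counts of these same 10 genes. The gene counts above are therefore a description and not a test.

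**Figure D1:**
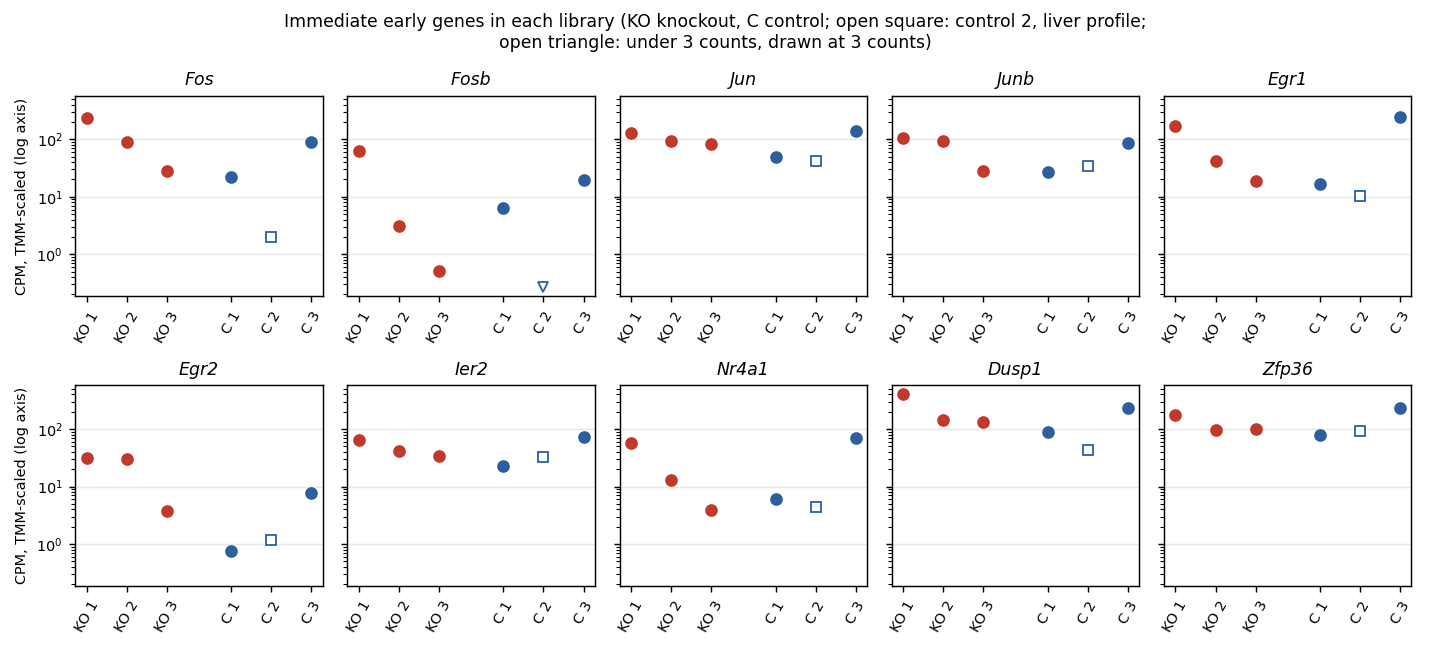
TMM-scaled CPM (log axis) of each of the 10 immediate early genes in the 3 knockout (KO) and 3 control (C) libraries, 1 panel per gene and 1 point per library; the open square is control replicate 2, with its liver profile, and the open triangle marks Fosb at 0 counts there, drawn at the level of 3 counts (0.268 CPM). Knockout replicate 1 and control replicate 3 are above knockout replicate 3 and control replicate 1 in every panel, and the points of the genotypes overlap in all 10. In the Junb and Egr2 panels control replicate 3 is below knockout replicate 2, for Egr2 at 7.63 against 30.4 CPM.

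No member passed the test of genotype. By edgeR's quasi-likelihood test with Benjamini-Hochberg adjustment over all genes, 0 of the 10 genes were called at an adjusted p under 0.05, where 0% of the 15928 genes tested were called, and adjusted p ran from 0.560 to 0.988. Without control replicate 2, 0 of 10 were called, where again 0% of the 16729 genes tested were, with adjusted p from 0.612 to 0.989. At an unadjusted p under 0.05, edgeR called 0 of 10 in both settings, beside 8.65% of the genes in the fit of all 6 libraries and 8.96% in the fit that leaves out control replicate 2. DESeq2 called 0 of 10 at an adjusted p under 0.05, beside 3.37% of all genes, and 0 of 10 without control replicate 2, beside 2.98%. At an unadjusted p under 0.05 DESeq2 had 1 of 10, Egr2, beside 13.5% of all genes, and again 1 of 10, Egr2, beside 13.1% without control replicate 2. With all 6 libraries, 7 of 10 log2 fold changes were above 0 and their median was 0.51, against −0.03 over all genes. Without control replicate 2, 6 of 10 were above 0, with a median of 0.28 against −0.04 over all genes.

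Neither direction had a gene whose libraries separated by genotype. Every knockout library was above every control library for 0 of the 10 genes, where 9.54% of all genes tested had that order. Without control replicate 2 the count was also 0 of 10, where 13.4% of all genes had it. No member had every knockout library below every control library either, and the share of all genes with that order was not computed.

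The median over the members depended on which of the high libraries was present. Without knockout replicate 1 the median log2 fold change was 0.01 and 5 of the 10 genes were above 0. Without control replicate 3 it was 2.01 and 10 of 10 were above 0, with adjusted p of 0.355 to 0.616 by edgeR. Without control replicate 1 the median was 0.24 and without knockout replicate 3 it was 0.78. The first 2 of these fits leave out the libraries with the highest levels of the members, and all 4 are given as a description.

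**Figure D2:**
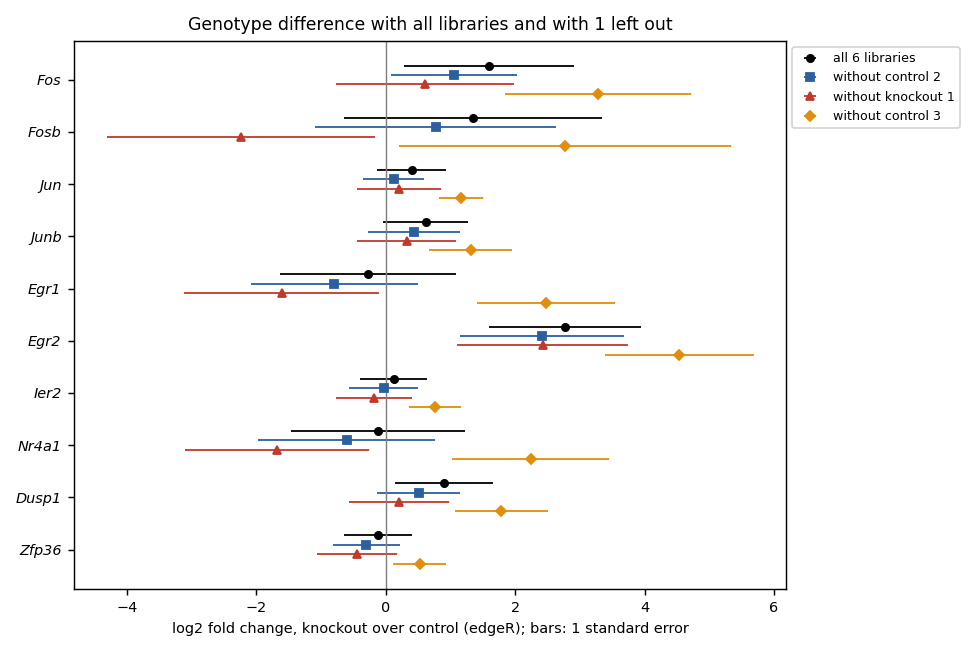
log2 fold change of knockout over control for each gene by edgeR, with bars of 1 standard error, from all 6 libraries, without control replicate 2, without knockout replicate 1 and without control replicate 3. Estimates without control replicate 3 lie to the right of those without knockout replicate 1 for all 10 genes, and Egr2 and Fos are among the 5 genes above 0 in all 4 fits.

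Fos (chromosome 12, 85473890 to 85477273, plus strand) encodes a partner that pairs with Jun proteins in AP-1 and is nearly absent from most resting cells. Its level was 232, 88.2 and 27.9 CPM in the knockout libraries and 21.9, 1.97 and 90.7 CPM in control replicates 1, 2 and 3. The mean was 116 ± 105 CPM (SD, n = 3) in knockout and 38.2 ± 46.5 CPM (SD, n = 3) in control tissue. The groups overlapped, with control replicate 3 above knockout replicates 2 and 3. By edgeR the log2 fold change was 1.60 ± 1.31 (SE; adjusted p = 0.745), and leaving out control replicate 2 gave 1.06 ± 0.97 (adjusted p = 0.766). The liver-like library had 22 counts of Fos, the lowest of the 6.

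Fosb (chromosome 7, 19302696 to 19310051, minus strand), a close relative of Fos that also pairs with Jun proteins, had the widest range of the members. It was at 62.0, 3.09 and 0.505 CPM in knockout and at 6.25, 0 and 19.4 CPM in control replicates 1, 2 and 3. Among the 5 libraries without control replicate 2 the highest level was 123 times the lowest, and both extremes were knockout libraries. Knockout replicate 3 rested on 13 counts, and a count of 0 in control replicate 2 allows up to 0.268 CPM. Its log2 fold change was 1.35 ± 1.99 (adjusted p = 0.883 by edgeR), was 0.77 ± 1.87 without control replicate 2 (adjusted p = 0.919), and turned to −2.24 ± 2.07 without knockout replicate 1.

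Jun (chromosome 4, 95049034 to 95052222, minus strand), the founding AP-1 subunit, varied least of the 4. It was at 128, 91.7 and 84.4 CPM in knockout and at 48.5, 42.5 and 140 CPM in control tissue. The knockout libraries lay inside the range of the controls, below control replicate 3 and above the other 2. A log2 fold change of 0.40 ± 0.53 was fitted (adjusted p = 0.868, edgeR), and 0.12 ± 0.47 without control replicate 2.

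Junb (chromosome 8, 84974484 to 84978718, minus strand), which restrains Jun at some targets, was at 105, 94.6 and 28.2 CPM in knockout and at 26.6, 34.6 and 87.3 CPM in control tissue. Here knockout replicates 1 and 2 were both above the highest control, and knockout replicate 3 was beside the lowest. Its log2 fold change was 0.62 ± 0.66 (adjusted p = 0.820, edgeR), and 0.44 ± 0.71 without control replicate 2 (adjusted p = 0.871). Prdx2 overlaps the locus on the other strand, and its 132 to 334 CPM ran differently, with the highest level in control replicate 2. The sources used here do not say whether counting used strand.

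Of the transcription factors outside AP-1, Egr2 (chromosome 10, 67535475 to 67542188, plus strand) had the largest log2 fold change of the 10 with all 6 libraries in edgeR. With FPKM and a pseudocount of 1, Fos (1.98) was above Egr2 (1.71), and without knockout replicate 1 and control replicate 2 the difference of Fosb (−2.78) was larger in size. Egr2 encodes a zinc-finger factor known from Schwann cells, from T cells and from macrophages responding to interleukin 4. It had 965, 867 and 96 counts in the knockout libraries and 20, 13 and 208 in the controls. That corresponds to 31.5, 30.4 and 3.73 CPM in knockout and 0.749, 1.16 and 7.63 CPM in control tissue. Knockout replicates 1 and 2 were above every control, and knockout replicate 3 was below control replicate 3, so the groups overlapped. The log2 fold change was 2.77 ± 1.17, with an unadjusted p of 0.0538 and an adjusted p of 0.560 by edgeR. Without control replicate 2 it was 2.42 ± 1.27 (adjusted p = 0.612), and DESeq2 gave adjusted p values of 0.174 and 0.253 in these settings. It was above 0 in each of the settings tried, from 1.71 to 4.88.

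Markers of macrophages, fibroblasts and T cells were high in the same libraries as Egr2. Adgre1 (F4/80), a surface protein of mouse macrophages, was at 268, 379 and 49.3 CPM in knockout and 28.9, 12.1 and 33.5 CPM in control tissue. The mean of 15 macrophage markers was 7.02, 7.25 and 5.6 on the log2(CPM + 1) scale in knockout and 5.27, 3.71 and 5.04 in control tissue. Of these markers 14 of 15 had a log2 fold change above 0, and no marker was at 0 in control replicate 2, the library lowest in them. The mean of 12 fibroblast and progenitor markers was 7.20, 7.90 and 6.58 in knockout and 5.25, 4.13 and 6.81 in control tissue, with 11 of 12 above 0 and, as for Egr2, control replicate 3 above knockout replicate 3. That of 12 T cell markers was 1.79, 1.90 and 1.41 in knockout and 1.09, 1.11 and 1.21 in control tissue, with 10 of 12 above 0. Knockout replicates 1 and 2 were thus the highest libraries for all 3 lists and for Egr2, and the part of these cells in the Egr2 values was not tested. Junb also had knockout replicates 1 and 2 as its highest libraries. Fos, Fosb and Dusp1 were highest in knockout replicate 1 and next in control replicate 3. Jun, Egr1, Ier2, Nr4a1 and Zfp36 did not share that order, since their highest library was control replicate 3.

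Egr1 (chromosome 18, 34859823 to 34864984, plus strand), a zinc-finger factor induced by serum response factor, was at 167, 41.1 and 18.6 CPM in knockout and at 17.0, 10.1 and 248 CPM in control tissue. Control replicate 3 was the highest library and 14.6 times control replicate 1. The means were 75.6 ± 80.0 CPM (SD, n = 3) in knockout and 91.7 ± 135 CPM (SD, n = 3) in control tissue. It had a log2 fold change of −0.28 ± 1.36 (adjusted p = 0.972 by edgeR), or −0.79 ± 1.29 without control replicate 2 (adjusted p = 0.872). It was −1.61 ± 1.51 without knockout replicate 1 and 2.48 ± 1.07 without control replicate 3.

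Nr4a1 (chromosome 15, 101254269 to 101274795, plus strand), also called Nur77, followed Egr1 closely. It was at 57.9, 12.8 and 3.92 CPM in knockout and at 6.10, 4.38 and 70.4 CPM in control tissue. The ratio of Egr1 to Nr4a1 counts stayed between 2.31 and 4.75 in all 6 libraries while Nr4a1 itself ranged 17.95-fold over the libraries other than control replicate 2. The log2 fold change of Nr4a1 was −0.12 ± 1.34 (adjusted p = 0.988, edgeR), and −0.61 ± 1.36 without control replicate 2 (adjusted p = 0.912).

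Ier2 (chromosome 8, 84661331 to 84662852, minus strand) was at 65.2, 42.1 and 33.4 CPM in knockout and at 23.1, 32.3 and 73.8 CPM in control tissue. The group means, 46.9 ± 16.4 and 43.1 ± 27 CPM (SD, n = 3 each), were close, and the log2 fold change was 0.12 ± 0.51 (adjusted p = 0.967 by edgeR). It turned to −0.03 ± 0.53 without control replicate 2 (adjusted p = 0.989). The ratio of Jun to Ier2 counts was between 1.90 and 2.53 in the libraries other than control replicate 2, where it was 1.32.

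Dusp1 and Zfp36 act as feedback on the response. Dusp1 (chromosome 17, 26505590 to 26562128, minus strand) was at 399, 144 and 134 CPM in knockout and at 87.5, 43.5 and 232 CPM in control tissue, so that control replicate 3 was above knockout replicates 2 and 3. Its log2 fold change was 0.90 ± 0.76 (adjusted p = 0.753, edgeR) and 0.51 ± 0.65 without control replicate 2. Ergic1 overlaps the long Dusp1 gene model on the other strand and was at 61.2 to 115 CPM, with knockout replicates 1 and 2 and control replicate 3 again the highest, so reads of the pair cannot be told apart with certainty.

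Zfp36 (chromosome 7, 28376784 to 28380253, minus strand) was at 175, 96.3 and 99.0 CPM in knockout and at 78.3, 94.0 and 229 CPM in control tissue. In CPM its level in the liver-like library was close to that in knockout replicates 2 and 3, but this rests on the TMM factor, since in TPM it was 31.7 there against 103 and 81.2. Its log2 fold change was −0.11 ± 0.53 (adjusted p = 0.971, edgeR), and −0.30 ± 0.51 without control replicate 2 (adjusted p = 0.879).

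Compared per length, in TPM (scaled to gene length and library size) computed from the deposited FPKM, Dusp1 had the highest level of the 10 in 5 libraries and Zfp36 in control replicate 2, at 31.7 TPM. Over the 5 libraries without control replicate 2 the median level of Dusp1 was 199 TPM (range 73.2 to 529). Next in order were Fos with a median of 130 TPM, Junb with 128, Jun with 107 and Zfp36 and Ier2 with 103 each. These 5 had ranges, from 21.0 TPM at the lowest to 353 at the highest, that overlapped throughout, so their order is not beyond their spread. Egr1 had a median of 34.1 TPM (8.56 to 186), Nr4a1 13.5 (3.18 to 67.5), Egr2 7.55 (0.497 to 33.3) and Fosb 2.26 (0.230 to 35.5). The sum over the 10 genes was 1784, 887 and 448 TPM in knockout and 255, 114 and 1352 TPM in control tissue.

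The spread between libraries of the same genotype set the precision of these comparisons. The SD of log2(CPM + 1) within groups, without control replicate 2, had a median of 1.28 over the members against 0.34 over all genes tested. It was 2.36 for Fosb, 2.01 for Egr1, 2.00 for Nr4a1, 1.60 for Egr2 and 1.48 for Fos, and 0.67 for Jun, the lowest. In the order of all genes by this spread, 8 of the 10 were at or above the 90th percentile and 6 at or above the 95th. With all 6 libraries 5 of the 10 were at or above the 90th percentile and 4 at or above the 95th, and the medians were 1.24 for the members and 0.51 for all genes. Between control replicates 3 and 1 alone, the members differed 2.66-fold to 14.6-fold, with a median of 3.24.

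**Figure D3:**
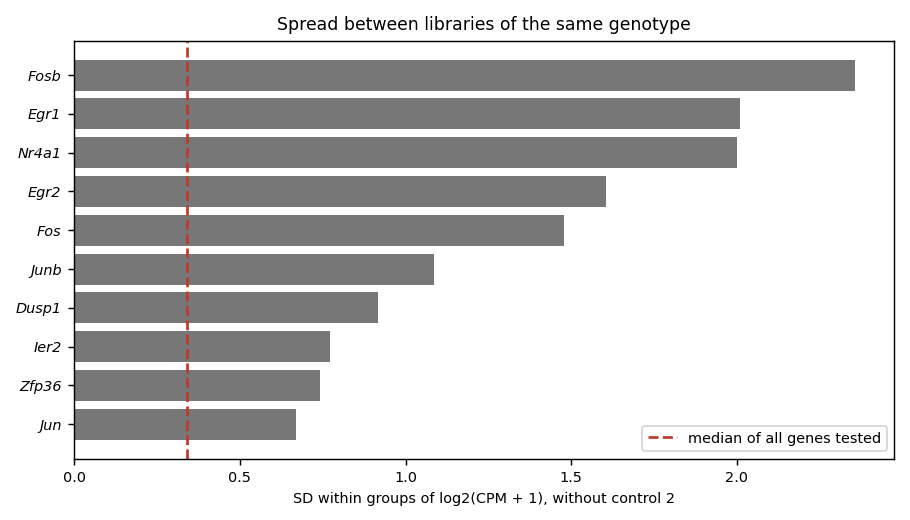
SD of log2(CPM + 1) between libraries of the same genotype for each gene, over the 3 knockout libraries and control replicates 1 and 3; the dashed line is the median over all genes tested (0.34). All 10 bars pass the line, from Jun at 0.67 to Fosb at 2.36.

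Ratios between members remove what the genes share in a library. Of the 45 ratios among the 10 genes, 9 did not overlap between genotypes with all 6 libraries, beside 15.5% of the ratios between any 2 genes tested, and 12 without control replicate 2, beside 26.7%. These shares lie near the background. Egr2 was in 5 of the 9 and in 7 of the 12. The ratio of Egr2 to Egr1 counts was 0.189, 0.740 and 0.2 in knockout and 0.0441, 0.115 and 0.0308 in control tissue, so that every knockout library was above every control. Egr2 was also higher relative to Junb, Ier2, Nr4a1 and Zfp36 in every knockout library, which makes 5 of the other 9 members. The ratio of Egr2 to each of the other 15927 genes tested gave that order for 6.22% of them. The count was 7 of 9 without control replicate 2, beside 9.63% of the genes. These ratios were chosen after their values were seen, and with 3 against 3 libraries the smallest two-sided p of an exact permutation test is 0.1, so none is given as a test.

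The ratio of Fosb to Fos counts split the libraries in another way. It was 0.267 in knockout replicate 1 and 0.285 and 0.214 in control replicates 1 and 3, but 0.0350 and 0.0181 in knockout replicates 2 and 3. Fosb was thus low relative to Fos in 2 of the 3 knockout libraries, while the third matched the controls, and control replicate 2, with 22 counts of Fos and 0 of Fosb, was not placed. The ratio of Jun to Junb was 1.22, 0.969 and 2.99 in knockout and 1.82, 1.23 and 1.61 in control tissue, with the control values inside the knockout range.

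**Figure D4:**
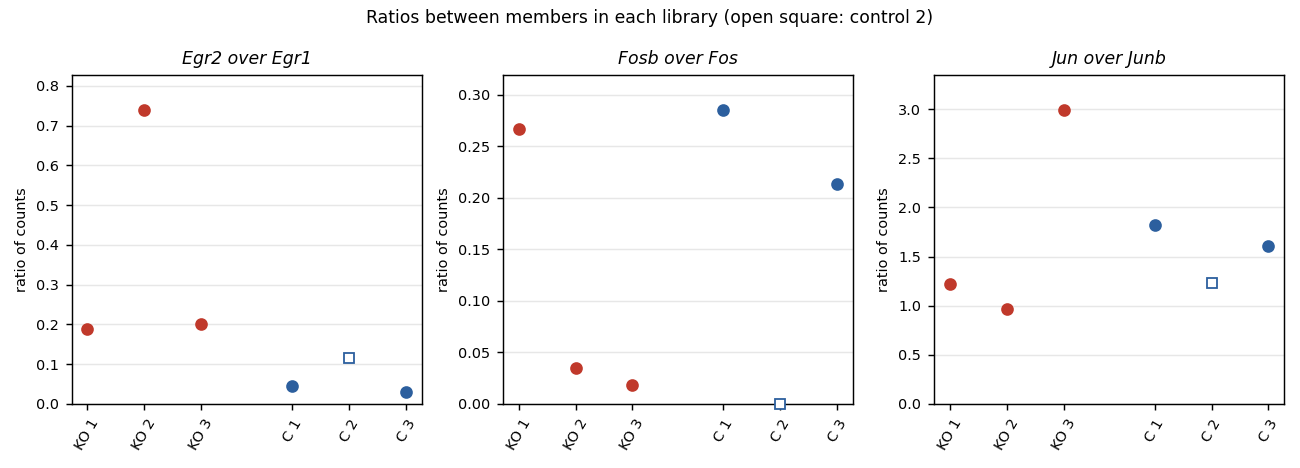
Ratios of counts of Egr2 over Egr1, Fosb over Fos and Jun over Junb in each library (linear axes from 0; KO knockout, C control; open square, control replicate 2). Egr2 over Egr1 is 0.189 or more in every knockout library and 0.115 or less in every control, whereas the other 2 ratios overlap between genotypes.

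The other genes of the response were read from lists of the pathway. Of 48 further immediate early and primary response genes, 46 were tested. At an adjusted p under 0.05 edgeR called 0, beside 0% of all genes. Of the 46, 27 were above 0 and the median was 0.13 (log2). Without control replicate 2, 22 of 47 were above 0, with a median of −0.19. At an unadjusted p under 0.05 edgeR had 3 above and 2 below control, beside 8.65% of all genes. DESeq2 called 1 of the list at an adjusted p under 0.05 with all 6 libraries, beside 3.37% of all genes, and 4 without control replicate 2, beside 2.98%. The library pattern of the members, knockout replicate 1 above control replicate 1 and control replicate 3 above knockout replicate 3, was present in 26 of the 46 against 28.8% of all genes. Knockout replicate 1 and control replicate 3 were the 2 highest libraries for 15 of the 46, beside 5.06% of all genes.

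The 4 genes of that list with the smallest p were Jund, Atf3, Plk3 and Errfi1. Every knockout library was above every control for 5 of the 46 tested, Jund and Atf3 among them, beside 9.54% of all genes. Plk3 was the 1 gene with every knockout library below every control, an order whose share of all genes was not computed. Jund, a constitutive Jun relative, was at 103, 98.0 and 97.8 CPM in knockout and 38.2, 51.1 and 60.5 CPM in control tissue, without overlap. Its log2 fold change was 0.99 ± 0.29 (edgeR adjusted p = 0.560), with a DESeq2 adjusted p of 0.0557 that became 0.0347 without control replicate 2. Atf3, a stress-induced AP-1 family factor, was at 111, 129 and 31.6 CPM in knockout and 4.38, 1.79 and 25.1 CPM in control tissue. Its log2 fold change was 3.12 ± 1.09 (edgeR adjusted p = 0.560; DESeq2 0.0593, and 0.0479 without control replicate 2), and its highest libraries, knockout replicates 1 and 2, were those highest in macrophage, fibroblast and T cell markers. Errfi1, an inhibitor of the EGF receptor, was at 107, 49.8 and 56.3 CPM in knockout and 95.5, 1534 and 252 CPM in control tissue, the highest level being in the liver-like library. DESeq2 called it with all 6 libraries (adjusted p = 0.0443) and not without control replicate 2 (0.235). Plk3, a stress-responsive kinase, also had its highest library in control replicate 2, with 267, 987 and 576 counts in the controls and 225, 236 and 136 in the knockouts, and a log2 fold change of −2.51 ± 0.83, or −1.14 ± 0.41 without control replicate 2.

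The inducers were read in the same way. The list held 25 inducers (serum response factor, ternary complex factors, CREB and kinases of the ERK and p38 pathways). Of these, 13 were above 0 with a median of 0.04 (log2), or 15 with a median of 0.17 without control replicate 2. At an adjusted p under 0.05 edgeR called 0, beside 0% of all genes. The inducers with the smallest p were Mrtfa, a serum response factor coactivator, at 1.56 ± 0.61, and Rps6ka1, a kinase activated by ERK, at 1.00 ± 0.40, both at an adjusted p of 0.560 by edgeR. Leaving out control replicate 2 gave 1.25 ± 0.56 and 1.10 ± 0.45. Of 12 other AP-1 dimer partners, 10 were above 0 with a median of 0.27, or 9 with a median of 0.37 without control replicate 2. Here too edgeR called 0, beside 0% of all genes. Batf3, a factor of dendritic cells, was at 4.31, 4.49 and 7.41 CPM in knockout and 0.899, 4.38 and 1.80 CPM in control tissue. DESeq2 called 0 of the 12 partners with all 6 libraries, beside 3.37% of all genes. Without control replicate 2 it called 2 of the 12, beside 2.98%, Batf3 among them (adjusted p = 0.0175).

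Heat shock genes also respond to stress of tissue. The mean of the 16 genes was between 6.38 and 6.74 on the log2(CPM + 1) scale in all 6 libraries, where the mean of the 10 members ran from 3.63 to 6.80. Since single genes of the list went both ways, this mean does not describe each of them. Of the 16, 7 were above 0 with a median of −0.09, or 10 with a median of 0.07 without control replicate 2. By edgeR 0 were called, beside 0% of all genes. The library pattern of the members was present in 7 of the 16, beside 28.8% of all genes. Knockout replicate 1 and control replicate 3 were the 2 highest libraries for 3 of the 16, beside 5.06%. Hspd1, a mitochondrial chaperone, had the smallest p with a log2 fold change of −1.13 ± 0.63, which was −0.29 ± 0.30 without control replicate 2, and Hspb8 followed with −0.83 ± 0.49, or −0.68 ± 0.47.

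Transcripts bound by ZFP36 had low levels in this tissue, with a list mean of 0.78 to 1.67 on the log2(CPM + 1) scale. Of 16 cytokine and other targets, 13 passed the filter on low counts, and of those 8 were above 0 with a median of 1.35 (log2), or 0.91 without control replicate 2. At an adjusted p under 0.05 edgeR called 0, beside 0% of all genes. DESeq2 called 0 with all 6 libraries, beside 3.37% of all genes, and 2 of the 13 without control replicate 2, beside 2.98%. Ccl4, a chemokine of macrophages and T cells, had 43, 79 and 11 counts in knockout and 3, 4 and 4 in control tissue, without overlap, and a log2 fold change of 2.97 ± 0.96 (edgeR adjusted p = 0.560), or 3.55 ± 1.05 without control replicate 2. Socs1, an inhibitor of cytokine signalling, was at 1.80, 3.23 and 2.52 CPM against 1.05, 0.447 and 0.917 CPM, a log2 fold change of 1.62 ± 0.58, or 1.37 ± 0.53 without control replicate 2. Of the 13 genes, 2 (Ccl4 and Socs1) had every knockout library above every control, beside 9.54% of all genes. Macrophage, fibroblast and T cell markers were also highest in knockout replicates 1 and 2, and their part in Ccl4 was not tested.

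Markers of the cell types that the tissue could hold were set beside the members by the same library pattern, which 28.8% of all genes had. It was present in 6 of 12 fibroblast and progenitor markers, 6 of 16 hepatocyte markers, 4 of 12 endothelial markers, 4 of 10 smooth muscle and pericyte markers and 4 of 12 T cell markers. Of 15 macrophage markers 1 had it, of 9 mesothelial markers tested also 1, and none of 14 adipocyte markers, 6 neutrophil markers and 7 erythroid genes tested. A stricter pattern, with knockout replicate 1 and control replicate 3 as the 2 highest libraries, was present in 5.06% of all genes. It was found in 3 of 12 endothelial markers and in 0 markers of each other cell type. Adipocyte markers had a mean of 10.3, 9.95 and 11.2 on the log2(CPM + 1) scale in knockout and 11.3, 5.78 and 10.8 in control tissue. Hepatocyte markers had means of 1.95, 5.96 and 3.6 in knockout and 2.42, 12.7 and 8.46 in control tissue. Smooth muscle and pericyte markers were at 4.56, 4.66 and 4.78 in knockout and 4.07, 1.99 and 4.78 in control tissue, and endothelial markers at 6.46, 6.23 and 6.46 against 6.56, 4.02 and 6.61. Erythroid genes were highest in control replicate 1 (8.83) and between 3.75 and 5.78 elsewhere, and neutrophil markers were highest there too, at 3.19 against 0.71 to 2.03. The part of cell content in the members' levels was not tested.

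**Figure D5:**
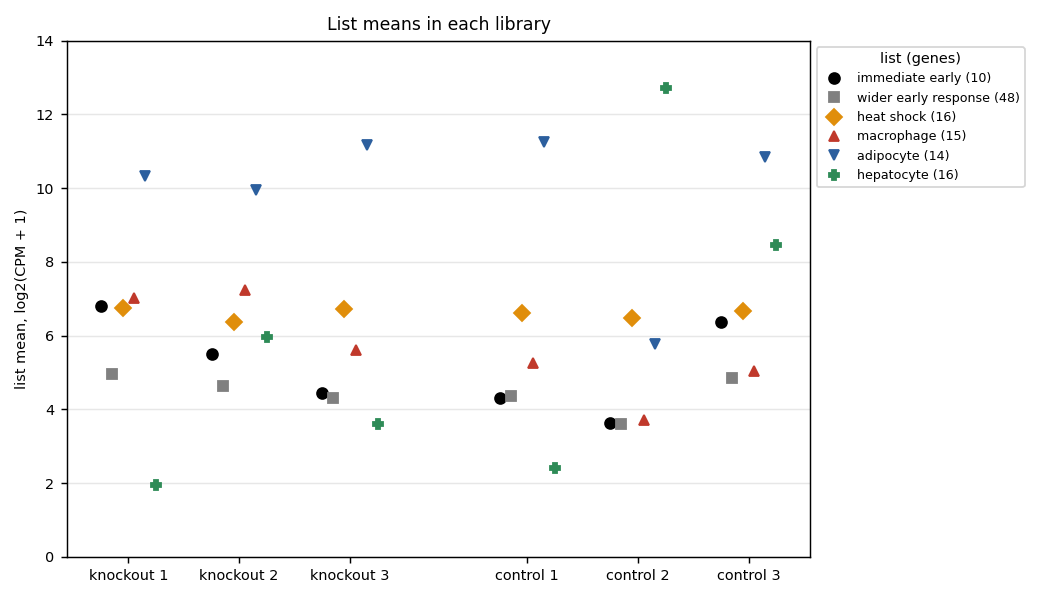
Mean log2(CPM + 1) of the genes of 6 lists in each library, 1 symbol per list with its number of genes in the legend. The immediate early genes (black) run from 3.63 to 6.80 while heat shock genes stay between 6.38 and 6.74, and hepatocyte markers peak in control replicate 2 at 12.7.

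The library titles carry numbers whose meaning is not stated, and those of knockout replicate 3 and control replicate 3 follow each other, apart from the other 4. Within this pair the control library was the higher for 10 of 10 members. Among the others, knockout replicate 1 was above control replicate 1 for 10 of 10, and knockout replicate 2 for 9 of 10, Fosb being the exception. With a term for this pair, edgeR gave 10 of 10 log2 fold changes above 0, a median of 1.20 and no adjusted p under 0.789. Without control replicate 2 the same term gave 6 of 10 above 0 and a median of 0.22. The direction within the pair was thus opposite to that of knockout replicates 1 and 2 against control replicate 1, and the pair holds 1 library of each genotype. Control replicate 2 was not in these comparisons. They restate the high and low libraries, which were named from these same genes. Knockout replicate 1 above control replicate 1 with control replicate 3 above knockout replicate 3 is the order of 28.8% of all genes. A part of the title numbers was not tested.

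The genes outside the members with the most similar profile were named by Pearson correlation of log2(CPM + 1) with the mean standardized level of the members. Over the 6 libraries and 13112 genes with a mean of at least 2 CPM, these were Tlr3, a receptor for double-stranded RNA, with r = 0.99, then Tti1 and Cyld with 0.98, and Gvin1 and Fbxw11 with 0.97. Tlr3 was at 22.4, 16.6 and 15.2 CPM in knockout and 13.4, 12.3 and 21.7 CPM in control tissue. Of the wider early response list, 7 of 43 genes ranked were in the top 5 percent of this order. Over the 5 libraries without control replicate 2 the top 5 were Pomt2, Magi1, Nlrc5, Senp1 and Klf6. Klf6, itself an early response gene of the wider list, was at 261, 200 and 180 CPM in knockout and 160, 24.3 and 249 CPM in control tissue. All of these correlations come from libraries that also differ in tissue mix and depth, and the genes named are the extremes of a ranking of all genes.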

How the data were processed

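Libraries were made from fragmented mRNA of 6 tissue samples, per the labels' protocols. Per the submitters' processing notes, the tools were featureCounts 1.5.0-p3, HISAT2 2.0.5, fastp and StringTie 1.3.3b, with build mm10. The strand setting and annotation release are not stated in the sources used. The authors deposited raw counts per gene, which were used for the tests, and FPKM, which served for TPM and as an alternative. Symbols were matched for 54409 identifiers; gene coordinates come from GENCODE vM21 (GRCm38, the assembly of mm10).

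Genes kept by filterByExpr were tested with edgeR 4.0.16 (R 4.3.3), robust quasi-likelihood, TMM scaling (factor 0.559 in control replicate 2, otherwise 0.982 to 1.25) and Benjamini-Hochberg adjustment over all genes. A standard error is the log2 fold change divided by the square root of F. All 10 members passed the filter. Alternatives were DESeq2 1.42.0, limma-voom (limma 3.58.1), other scalings and filters, FPKM with pseudocounts of 1 and 0.1, an adjusted p under 0.1, a term for the title numbers and libraries left out. The edgeR, DESeq2 and limma-voom code was tested on simulated counts. In a first draw at the higher dispersion, limma-voom missed the bound set on recovered fold changes. Several draws, the first included, were then pooled under the same bound. Replicate numbers follow the order of the records. Replicates differed beyond sampling noise, with chi-square per degree of freedom of 62.4 to 1235, so each library is 1 sample. The labels do not say how many mice gave each sample, and p-values measure only the spread between samples, which may be technical.

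The members and the 15 other gene lists were chosen with earlier results of these data known, and the liver profile of control replicate 2 was known too. Named genes are the members, the 4 genes of smallest p of the wider list and the 2 of smallest p of each other pathway list, the 5 genes most like the members, and Alb, Adipoq and Adgre1 as markers; Pdcd1, Prdx2 and Ergic1 were added as the targeted gene and as overlapping genes. One gene that this rule names is not reported here. The search for TATAAA was added after the other motifs. Figures were drawn with matplotlib 3.10.9.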

Additional observations from a re-analysis of the deposited data

How the results depend on the processing

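Of the 10 members, 0 passed an adjusted p under 0.05 in every setting tried, DESeq2, limma-voom and an adjusted p under 0.1 included. The count over all genes was 0 with edgeR in every setting and with limma-voom, and 525 with DESeq2, or 470 with DESeq2 without control replicate 2; the cause was not tested. Egr2, Fos and Junb kept their direction in all settings. The median over the members ran from 0.0089 to 2.01 when 1 library was left out, the highest being without control replicate 3, and was −0.25 without both knockout replicate 1 and control replicate 2. Leaving out 1 library gave −1.61 to 2.48 for Egr1, −1.68 to 2.24 for Nr4a1, −0.45 to 0.52 for Zfp36, −2.24 to 2.77 for Fosb and −0.18 to 0.76 for Ier2, and at most 1.16 for Jun and 1.79 for Dusp1. Directions also turned, in log2 fold change, with limma-voom (Egr1 0.37, Nr4a1 0.026, Zfp36 0.0080), with total counts alone (Nr4a1 0.036, Zfp36 0.18), with FPKM + 1 (Egr1 0.38, Nr4a1 0.13), with FPKM + 0.1 (Egr1 0.50, Nr4a1 0.19), without controls 2 and 3 (Egr1 2.17, Nr4a1 2.04, Zfp36 0.67) and with the title number term (Egr1 1.45, Nr4a1 1.23, Zfp36 0.053). They turned as well for Fosb with that term (−1.06) or limma-voom (−1.13) without control replicate 2, for Ier2 with DESeq2 without control replicate 2 (−0.044), and without knockout replicate 1 and control replicate 2 for Fosb (−2.78), Jun (−0.068), Ier2 (−0.33) and Dusp1 (−0.17), where Egr1 was at −2.10, Nr4a1 at −2.14 and Zfp36 at −0.63. The last setting and the tools without control replicate 2 were added after the data were seen. Total counts alone moved the median of all genes to 0.34, and the members were then 0.45 above it, against 0.54 with TMM. The FPKM filter, at least 1 in 3 libraries, left out Fosb. Depth limits Fosb, with 13 counts in knockout replicate 3 and 0 in control replicate 2. No paired analysis was possible because the labels give no replicate numbers shared between the groups; the title number term sets 2 libraries apart from 4 and pairs none of the others.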
